A study of Homo sapiens with 42 samples.

Results

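The loops described here had high contact counts on average over a differentiation time course and nearly the same count at each of its times. A chromatin loop is a pair of genome segments, the anchors, that lie close together in the nucleus more often than their distance along the chromosome would give. Contacts were counted by in situ Hi-C, which ligates DNA ends lying near each other in fixed nuclei and sequences the ligated pairs. The cells were K562, an established human line derived from chronic myeloid leukemia, with wild-type genotype and kept in RPMI with fetal bovine serum. They were treated with 25 nM PMA, a phorbol ester that activates protein kinase C and drives these cells toward megakaryocytes, for 0 h, 6 h or 72 h, and were then fixed with formaldehyde. The 3 groups differed in time of treatment alone, as far as the labels say; K562 is a cancer line and a model of this step, not a normal progenitor, and the labels do not say that the 4 biological replicates of a time came from separate cultures, so p-values may measure technical spread.

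The loops were chosen by their counts. The deposited table held 33914 loops with anchors of 10 kb. Counts were summed into 12 libraries, 1 for each of 4 biological replicates at each of 3 times, and each library was scaled to 1000000 contacts over the 22795 loops with a mean raw count of 10 or more, and values so scaled are called scaled contacts. A loop was strong when its mean raw count over the 12 libraries was 100 or more, which held for 1695 loops. It was constant when the highest of its 3 time means was at most 1.1 times the lowest. Both conditions held for 239 loops, and the other 1456 strong loops missed the second. Because the counts at 0 h, 6 h and 72 h selected these loops, their small differences between times are a description and are given without support from a test. All 239 had enough counts for the fit across loops.

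Most loops in mammalian cells form where the ring complex cohesin extrudes DNA until it meets the zinc-finger protein CTCF bound at both anchors, with the CTCF motifs pointing toward each other. Loops also join promoters with enhancers, and such contacts can change when a cell changes its expression program. In the megakaryocytic step from a K562 cell, genes of the erythroid program are lowered and genes of platelets and adhesion are raised.

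The CTCF motif itself could be searched in promoters that lie within anchors. RefSeq promoters (assembly GRCh38.p14, the build hg38 being named in the submitters' processing notes) run from 250 bases before to 50 bases after a gene's start. At the anchors of the constant loops lay 106 such promoters of 90 genes. The 12-base core of the CTCF motif, searched on both strands, was found in 2 of them, 1.89% (Wilson 95% interval 0.519% to 6.62%). It was in 0.414% of 22198 protein-coding promoters and in 0.753% of the 4779 at anchors of loops with a mean count of 10 or more. At anchors of the other strong loops it was in 4 of 739 (0.541%, Wilson 95% interval 0.211% to 1.38%). A shorter run of 9 bases, AGGGGGCGC, which overlaps the downstream end of that motif's usual sequence, was in 3 of the 106 (2.83%), against 2.44% of all promoters. It was in 3.35% of the promoters at anchors of loops with a mean count of 10 or more. At anchors of the other strong loops it was in 3.92%. The interval for the core lay above that of all promoters (0.338% to 0.508%) and overlapped that of promoters at anchors in general (0.545% to 1.04%), and it rests on 2 promoters. Sequences with a match are printed to show where the core or the shorter run lay at an anchor of a constant loop. The CHD9 and WDR38 lines give the 250 bases before the start of CHD9, a chromatin remodeler of the CHD family, and of WDR38, a WD-repeat protein, with the CTCF core in capitals. The remaining lines give 60 bases around the shorter run, in capitals, before the starts of WNT2B, a Wnt ligand, and GGT7, a member of the gamma-glutamyltransferase family. The third promoter with the shorter run, that of NR6A1, has it after the gene's start and is not printed.

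CHD9 promoter (chr16:53054741-53054990, plus strand): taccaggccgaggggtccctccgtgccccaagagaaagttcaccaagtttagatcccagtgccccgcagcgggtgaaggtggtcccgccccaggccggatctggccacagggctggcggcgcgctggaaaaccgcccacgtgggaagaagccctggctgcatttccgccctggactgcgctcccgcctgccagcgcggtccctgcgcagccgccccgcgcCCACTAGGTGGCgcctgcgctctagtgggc

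WDR38 promoter (chr9:124853210-124853459, plus strand): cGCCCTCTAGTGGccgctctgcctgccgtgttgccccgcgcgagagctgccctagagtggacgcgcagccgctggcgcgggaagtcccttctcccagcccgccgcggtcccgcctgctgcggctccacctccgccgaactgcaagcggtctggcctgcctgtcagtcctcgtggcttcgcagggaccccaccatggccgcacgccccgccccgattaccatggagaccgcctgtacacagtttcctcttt

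WNT2B promoter window (chr1:112466291-112466350, plus strand): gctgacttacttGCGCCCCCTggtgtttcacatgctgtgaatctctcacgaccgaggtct

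GGT7 promoter window (chr20:34872888-34872947, minus strand): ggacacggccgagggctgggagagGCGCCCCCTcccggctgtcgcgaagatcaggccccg

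The CHD9 core lay on the plus strand in the upstream anchor of loop28793, and the WDR38 core lay on the minus strand in the downstream anchor of loop19747. Both cores thus pointed into the loop. Over the loops with a mean count of 10 or more, 55 of 62 pairs of a promoter core and a loop anchor pointed into the loop, and 4 of 5 did so in the other strong loops. A match is a run of letters, not a measured binding site, and anchor sequence outside the promoters was not used here. The WDR38 loop, loop19747, ran 80 kb from chr9:124770001-124780000 to chr9:124850001-124860000. Its upstream anchor held the starts of NR6A1, an orphan nuclear receptor, and OLFML2A. It had 175.3, 159.5, 154.6 and 134 scaled contacts in replicates 1 to 4 at 0 h, 154.7, 158.1, 175.8 and 160.8 at 6 h, and 159.1, 156.6, 158.1 and 157.2 at 72 h. The lowest library was at 0 h and the highest at 6 h, and the times overlapped.

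Depth over all loops was 849895 to 1472197 contacts in the 0 h libraries, 736929 to 1090199 in those of 6 h, and 988726 to 1181057 in those of 72 h. The constant loops held 3.27% to 3.55% of the scaled contacts, and the other strong loops held 19.2% to 22.5%. The counts of the 72 h replicates 3 and 4 agreed within sampling noise (chi-square test over the loops used for scaling, 1.001 for each degree of freedom, p 0.438). They were averaged and taken as 1 sample, which gives n = 3 for 72 h and n = 4 for the other times in each mean ± SD. Replicates 3 and 4 of 0 h also agreed within sampling noise (1.01, p 0.155) but were kept as 2 samples, since the planned design named the 72 h pair; those of 6 h gave 1.016 (p 0.049). Choosing the loops used all 4 libraries of each time.

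The precision of a time mean bounds what constant can mean here. A loop at the limit of 100 counts has about 400 contacts in the 4 libraries of a time, and the exact 95% Poisson interval of 400 is 361.8 to 441.2, from 9.56% below to 10.3% above. For 3972 contacts, those of 4 libraries at the mean count of the strongest loop, it is 3.09% below to 3.16% above. Counting error alone is thus about as wide as the 1.1-fold limit for most of these loops; intervals cover counting error only. Between replicates, the median coefficient of variation of a constant loop was 8.11% before treatment, 9.38% after 6 h and 7.28% after 72 h. Counting error of a single library at their median count is 9.02%. The 72 h value is not on the same footing, since replicates 3 and 4 were averaged there. Other strong loops had 8.9%, 9.77% and 7.42%, beside 8.95% for counting error.

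The 10 constant loops with the highest counts lay on chromosomes 1, 6, 9, 12 and 22, and 5 of them lay in one stretch of chromosome 22. The strongest, loop32376, joined an anchor in RSPH14 (chr22:23170001-23180000) with one in BCR (chr22:23280001-23290000), the gene that K562 carries fused to the tyrosine kinase gene ABL1. Its mean raw count was 992.9, which was 15.7 times the median of loops of its length. It had 1040, 1014, 1019 and 985.4 scaled contacts in replicates 1 to 4 at 0 h, 1085, 999.5, 950.6 and 1077 at 6 h, and 1007, 997.6, 920.9 and 996.6 at 72 h. The means were 1015 ± 22.4, 1028 ± 64.5 and 987.7 ± 25.5 (SD), and the times overlapped.

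The second strongest, loop19805, joined an anchor in ABL1 itself (chr9:130860001-130870000) with one at FIBCD1 (chr9:130940001-130950000), an acetyl-binding membrane receptor gene. It had 592, 543.4, 576.9 and 559.7 scaled contacts at 0 h, 609.8, 616.9, 623.3 and 540.5 at 6 h, and 604.9, 617, 546.5 and 562.1 at 72 h. The lowest of the 12 values was replicate 4 at 6 h, and without it the 6 h libraries lay above those of 0 h. Of the 2 most frequent constant loops, 1 thus had an anchor within BCR and 1 within ABL1, the partners of the fusion.

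**Figure D1:**
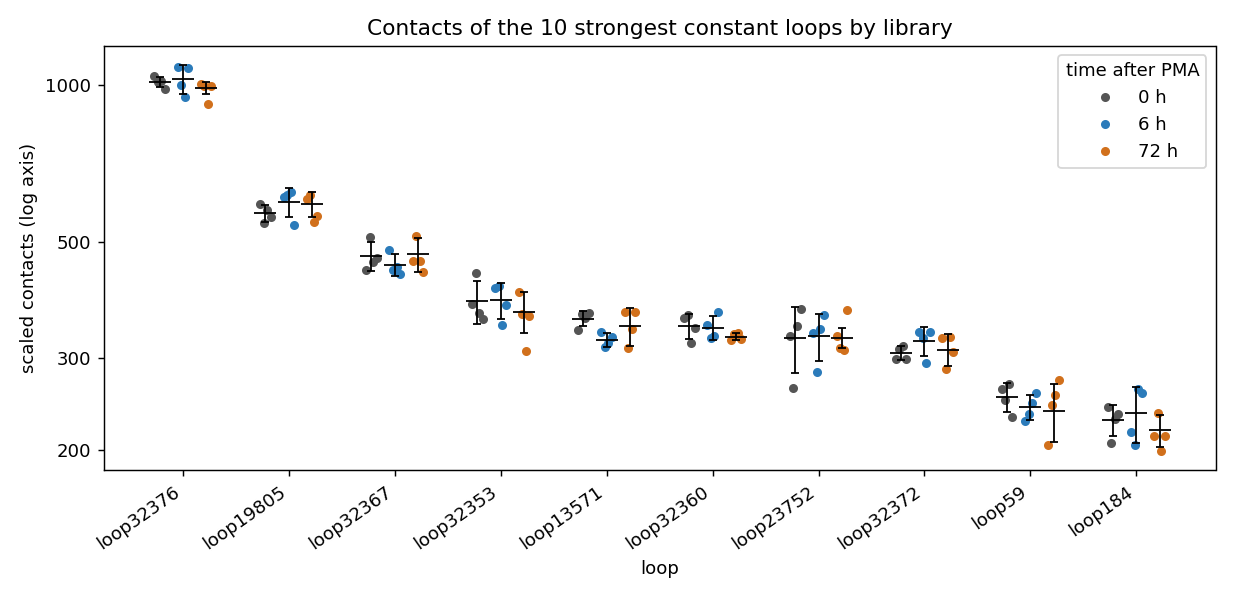
Scaled contacts (log axis) of the 10 constant loops with the highest mean counts, with a point for each library, coloured by time, and black bars for mean ± SD (n = 4 at 0 h and 6 h, n = 3 at 72 h). The time groups of loop32376 lie between 920.9 and 1085 and overlap, while in loop13571 the 6 h libraries (314.3 to 336.3) lie below those of 0 h (340 to 366).

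The other loops of this stretch of chromosome 22 were loop32367, loop32353, loop32360 and loop32372. Loop32367, at 455.8 mean counts, spanned VPREB1, which encodes part of the surrogate light chain of B cell precursors. It had 470 ± 30.2, 452.5 ± 21.9 and 474.4 ± 35 scaled contacts at 0 h, 6 h and 72 h. Loop32360 began at the start of MED15, a subunit of Mediator, and ended within the same gene, with 345.6 ± 18.8, 342.8 ± 18.6 and 329.8 ± 4.82. Loop32372 ended at GNAZ, a G protein alpha subunit gene, and at 280 kb held 10 times the median count of loops of its length. Its means were 306.4 ± 9.51, 323.1 ± 20.5 and 310.9 ± 21.9.

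From 19000001 to 23290000 on chromosome 22, an interval set after the values were seen, 35 of the 37 loops with a mean count of 10 or more were strong and 5 were constant. Their counts were a median of 5.23 times (quartiles 4.19 and 6.98) those of loops of equal length. In the rest of chromosome 22 downstream of it, 270 loops had a median of 0.866 times, 5 were strong and 1 was constant. K562 is known to carry extra copies of the BCR and ABL1 fusion region, and the number of copies was not measured by these counts; its part in the high values was not tested. Of the 8 constant loops with a mean count of 300 or more, 5 lay in this interval.

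Outside the BCR and ABL1 regions, the highest count was that of loop13571 in the class III part of the major histocompatibility complex. Its anchors (chr6:31680001-31690000 and chr6:31720001-31730000) held the start of LY6G5C and, on the other side, the starts of DDAH2, LY6G6C and MPIG6B. MPIG6B encodes G6b-B, an inhibitory receptor of megakaryocytes and platelets. The loop had 340, 363.8, 358.4 and 366 scaled contacts at 0 h, 336.3, 314.3, 320.2 and 328.9 at 6 h, and 367.6, 313.2, 341 and 367.9 at 72 h. The 6 h libraries were below those of 0 h in this loop, by a ratio of means just inside the limit (1.0988), and 72 h overlapped both.

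Loop23752 on chromosome 12 ended at CALCOCO1, an autophagy receptor gene, and had 328.1 ± 47, 330.2 ± 34.3 and 328.2 ± 14 scaled contacts at 0 h, 6 h and 72 h. Replicate 2 was its lowest library at 0 h (262.6) and 6 h (282.1), while its time means lay within 1.0101-fold. On chromosome 1, loop59 started at the promoter of ACOT7, an acyl-CoA thioesterase gene, and had 252.4 ± 16.3, 241.3 ± 13.2 and 237 ± 30.2. Loop184 had no gene at its anchors and 228 ± 15.4, 234.9 ± 29 and 218.1 ± 15.4. In these 3 loops the libraries of the times overlapped.

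Loops with the most even time means were ordinary in count. The ratio of highest to lowest mean was 1.0017 in loop13668 on chromosome 6, which spans GLP1R, the receptor of an incretin hormone, 1.0029 in loop29683 on chromosome 17 around the homeobox gene MEOX1, and 1.0039 in loop16229 on chromosome 7 at TMEM270. In loop13668 the libraries ranged from 90.82 to 129.9 scaled contacts before treatment, 87.83 to 131.5 after 6 h, and 83.91 to 129.6 after 72 h. Its even means thus came from libraries that differed by more than 1.4 times within each time. In loop29683 the ranges were narrower, 172.5 to 190.2, 167.9 to 187.6 and 165.5 to 198.1. Loop21289 on chromosome 11 linked the channel genes TRPM5 and KCNQ1 (ratio 1.0044), and loop19800 on chromosome 9 linked ASS1, of the urea cycle, with FUBP3 (1.0056).

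Lengths ran from 30 kb to 530 kb with a median of 80 kb, the same median as in the other strong loops, while loops with a mean count of 10 or more had a median of 280 kb. The longest, loop7963, ran 530 kb on chromosome 3 around HES1, a transcriptional repressor downstream of Notch. It had 110.7, 121.3, 126.4 and 110.4 scaled contacts at 0 h, 120.8, 117.1, 142.9 and 108.8 at 6 h, and 105.2, 107.8, 126.9 and 118.3 at 72 h. Its mean count of 115.2 was 6.17 times the median at its length. Loop13480 ran 480 kb from ABT1 over ZNF322 on chromosome 6 and held 6.4 times the median at its length. Of the 3 loops of 380 kb, loop4035 on chromosome 2 spanned GLI2, a transcription factor of Hedgehog signalling. Another, loop13581, spanned 7 class II histocompatibility genes, among them HLA-DRA and HLA-DQA1, and had 98.44 ± 13.6, 104.2 ± 12.3 and 106.7 ± 4.49. The third, loop3100, spanned EDARADD, ERO1B and GPR137B on chromosome 1. Such length was rare among strong loops in general: 19 of the 1695 reached 400 kb, and 2 of these were constant.

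Of the constant loops, 3 had the end of a listed gene in an anchor; the lists covered cohesin and CTCF, megakaryocyte, erythroid, AP-1 and immediate early, blood transcription factor and housekeeping genes. Loop23760 on chromosome 12 had the end of NFE2, a transcription factor needed for platelet formation, in its upstream anchor (chr12:54290001-54300000) and GPR84 and ZNF385A in the downstream one (chr12:54360001-54370000). It had 199.5, 179.5, 160.8 and 176.8 scaled contacts at 0 h, 165.7, 165.9, 161.5 and 179 at 6 h, and 161.8, 165.9, 150.6 and 175.6 at 72 h. The highest library was at 0 h, the times overlapped, and its ratio of 1.0958 was near the limit. Loop13552 on chromosome 6 joined IER3, an immediate early gene, and the start of FLOT1 to a site without a gene, with 175.9 ± 11.9, 173.7 ± 18.5 and 172.8 ± 20.9. Loop18716 on chromosome 8 had the end of the oncogene MYC in an anchor, with 108.3 ± 13.1, 101.7 ± 4.04 and 105.8 ± 18.1.

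The listed genes had few strong loops to draw from. Of the 8 loops with an end of an erythroid gene at an anchor, 4 were strong and none was constant, and 7 fell at 72 h against 0 h (adjusted p under 0.05 in edgeR's quasi-likelihood test). At housekeeping genes 7 of 12 loops fell, none rose, 2 were strong and none was constant. At megakaryocyte genes 3 of 6 rose and 1 fell, and at AP-1 and immediate early genes 4 of 28 rose and 6 fell. At blood transcription factor genes 2 of 19 rose and 6 fell, with 3 strong and none constant. None of the 12 loops at genes of cohesin and CTCF was strong; 4 of them fell and none rose. Over all 24132 loops tested, 33.6% changed at 72 h, 16.7% rising and 16.9% falling.

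Gene starts were at fewer anchors of the constant loops than of strong loops that were lower at 72 h. An anchor held the start of a protein-coding gene in 71 of the 239 (29.7%), in 37.3% of the 1130 other strong loops with a lower 72 h than 0 h mean, in 24.2% of the 326 with a higher one, and in 20.4% of loops with a mean count of 10 or more. In 13 constant loops (5.44%) both anchors held a start. An end of a protein-coding gene lay at an anchor in 118 (49.4%, Wilson 95% interval 43.1% to 55.7%), against 55.1% of the other strong loops. These shares are descriptions, without a test.

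**Figure D2:**
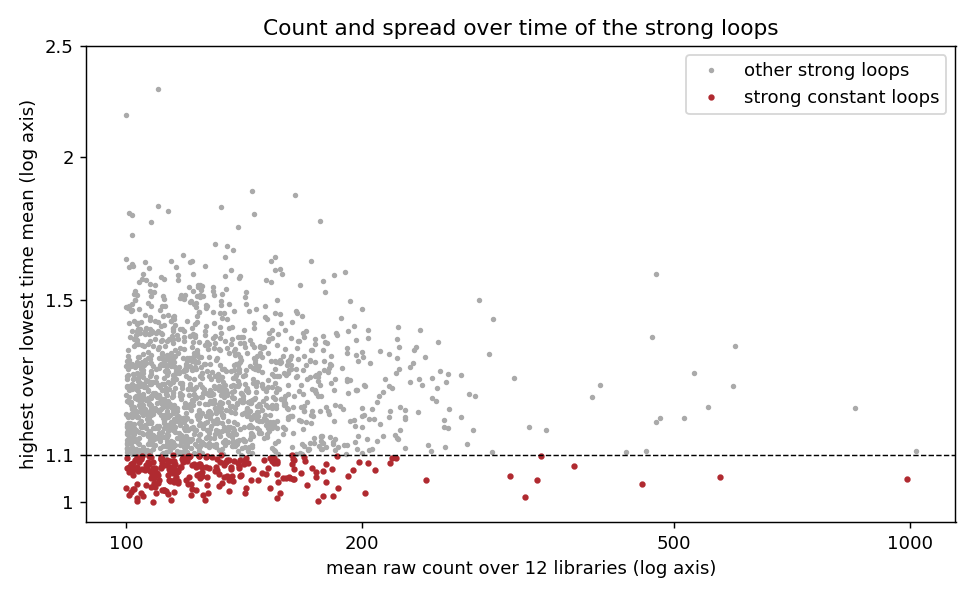
Highest over lowest time mean against the mean raw count over 12 libraries (both log axes), with a point for each of the 1695 strong loops and a dashed line at the ratio of 1.1 that bounds the constant loops. The 239 constant loops lie at all counts from 100 to 992.9, and the nearest loop above the line is at 1.1001.

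The limit cut through a continuous range. Just inside lay loop3860 (ratio 1.0999, between PTCD3 and IMMT), loop13572 (1.0994, between the starts of C2 and EHMT2 and those of NELFE and SKIC2) and loop32271 (1.0992, at RRP1B). Just outside lay loop30777 (1.1001, at PDE4C), loop30568 (1.1009, from GNG7 to SLC39A3) and loop19789 (1.1009, at ASB6). In loop3860 the libraries ranged from 94.6 to 131.3 scaled contacts before treatment and from 107.2 to 133.8 after 72 h. The highest time mean was that of 0 h in 108 constant loops, of 6 h in 75 and of 72 h in 56. Constant loops made up 14% of strong loops with a mean count of 100 to 150, 14.5% from 150 to 200, 8.33% (7 of 84) from 200 to 300 and 30.8% (8 of 26) from 300.

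Chromosome 1 held the largest number, 31, but also 350 of the strong loops, so that 8.86% of them were constant. On chromosome 17 it was 20 of 109 (18.3%), on chromosome 6 it was 25 of 152 (16.4%), on chromosome 11 it was 18 of 100 (18%) and on chromosome 19 it was 19 of 137 (13.9%). Over all chromosomes it was 239 of 1695. None of the 13 strong loops on chromosome 14 and none of the 2 on chromosome 13 was constant, and these are too few to read as a difference.

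In the fit across loops, none of the 239 was called between 6 h and 0 h (adjusted p under 0.05, edgeR), where 6.41% of all 24132 tested loops were called. None was called at 72 h against 0 h, where 33.6% were, and none at 72 h against 6 h, where 20.5% were. At an unadjusted p under 0.05 the counts were 1, 3 and 0, and DESeq2 called none in these comparisons. As the same counts chose the loops, nothing is read from these calls. The authors' deposited table classed all 239 as static. It gave the same class to 1393 of the 1456 other strong loops and to 21292 of the 22795 loops with a mean count of 10 or more. The class thus hardly sets the constant loops apart. The deposited log2 fold changes of the 239 lay between -0.113 and 0.0498 for 6 h and between -0.141 and 0.0923 for 72 h.

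The scale matters for the sign of what is left. With TMM scaling, which sets the typical loop to no change, the log2 fold changes had a median of -0.05 at 6 h (range -0.22 to 0.10) and -0.08 at 72 h (range -0.20 to 0.08). They were below 0 in 192 and 194 of the 239. On the scale of these contacts, which chose the loops, the medians were -0.01 and -0.03. With an offset for loop length they were 0.04 and 0.02, so that the sign of the typical constant loop depends on the scaling.

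The 95% intervals of these fold changes are centred near 0 by the choice of loops, so that they describe the precision of the fit and do not bound a change. None of the 239 lay within 1.1-fold (0.138 on the log2 scale) in its whole interval in any of the 3 comparisons between times. Within 1.25-fold lay 167 intervals at 6 h against 0 h, 157 at 72 h against 0 h and 200 at 72 h against 6 h. Within 1.5-fold lay all 239 in each of the 3. The median half-width was 0.218 at 6 h and 0.212 at 72 h.

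**Figure D3:**
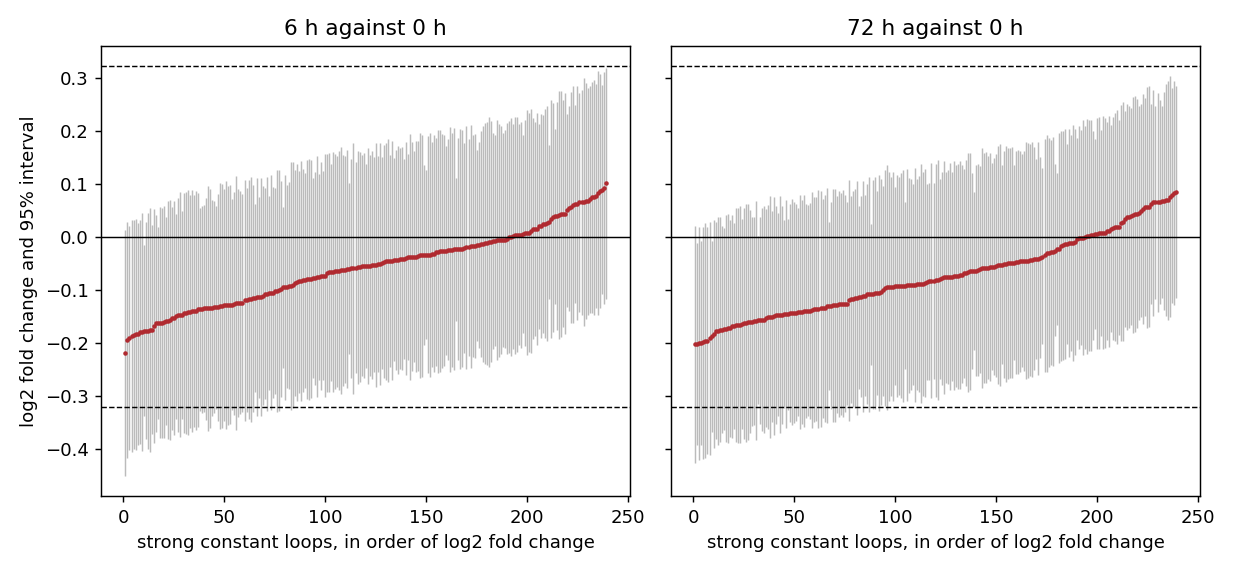
Log2 fold change (TMM scaling, red points) and its 95% interval (grey) of the 239 constant loops, ordered by fold change, at 6 h and 72 h against 0 h, with dashed lines at 1.25-fold. In both panels intervals past the lower line belong to loops at the left, and 167 and 157 intervals lie within the lines.

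Replicates 1 and 2 and replicates 3 and 4 differ in their numbers of technical replicates and sequencing repeats per the labels. The 1.1-fold limit was set in one pair and tried in the other. Counts of both pairs decided which loops were strong, so the trial covers the limit alone. Loops chosen by the same rule in replicates 1 and 2 numbered 162 among those strong in both pairs. In replicates 3 and 4, 36 of these (22.2%) again stayed within 1.1-fold, against 114 of the 1063 loops not chosen (10.7%). Chosen in replicates 3 and 4, 36 of 150 (24%) did so in replicates 1 and 2, against 126 of 1075 (11.7%). Their median ratio in the other pair was 1.165 and 1.164, against 1.259 and 1.241 in the loops not chosen. About 1 loop in 4 or fewer thus met the limit again, about double the share of other strong loops. Among the 239 themselves, the ratio within replicates 1 and 2 had a median of 1.1 and a maximum of 1.345. Within replicates 3 and 4 the median was 1.108 and the maximum 1.301. Both pairs were used to choose the 239, so these ratios are a description and no trial.

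Between the replicate pairs, a contrast that the choice did not use, none of the 239 was called (edgeR quasi-likelihood test, adjusted p under 0.05), beside 0.029% of all tested loops, which were 7. At an unadjusted p under 0.05 there were 29 (12.1%), against 8.62% of all tested loops and 11.9% of the other strong loops. The share was thus close to that of other strong loops. DESeq2 had 16 at that p and called none. The largest difference was in loop5263 on chromosome 3, with an anchor in CLASP2, a microtubule plus-end protein gene. It had 144.1, 132.7, 109.2 and 125 scaled contacts at 0 h, 120.8, 115.2, 118.6 and 117.3 at 6 h, and 145.6, 136.9, 81.76 and 102.6 at 72 h. At 72 h, replicates 3 and 4 were lower than 1 and 2. Over the 3 times together, the log2 difference between the pairs was -0.28 (edgeR adjusted p 0.266). The others with the smallest p were higher in replicates 3 and 4, loop23428 within AMN1 (0.28 on the log2 scale, edgeR adjusted p 0.268) and the CHD9 loop, loop28793 (0.27, edgeR adjusted p 0.276). Loop28793 had 126.4, 103.1, 157.1 and 130.6 at 0 h, 120.8, 91.75, 132.9 and 143.9 at 6 h, and 140.2, 103.7, 134.5 and 132.2 at 72 h, with replicate 2 lowest at each time.

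The anchors of constant loops took part in other loops that did change. Another loop shared an anchor with 175 of the 239, and the remaining 64 (26.8%) had anchors of their own. That was close to the 27.5% of other strong loops, beside 17.1% of loops with a mean count of 10 or more. Sharing an anchor with a constant loop were 363 loops that were not constant by this rule, of which 358 could be tested. At 72 h against 0 h, 113 of them fell and 20 rose (edgeR, adjusted p under 0.05), 31.6% and 5.59% of those tested, beside 16.9% and 16.7% of all loops. Their median log2 fold change was -0.17. Of the 239 constant loops, 96 shared an anchor with a loop that fell, 13 with one that rose and 4 with both.

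That pattern was not particular to constant loops. Among 1539 tested loops that shared an anchor with other strong loops alone, 440 (28.6%) fell and 108 (7.02%) rose, with a median of -0.19. The median of the mean raw counts was 49.25 in the first set and 42.29 in the second. Among the loops at anchors of constant loops were strong ones, which are not constant by construction; without them 95 of 316 fell and 16 rose. At 6 h against 0 h, 11 of the 358 fell and 9 rose (3.07% and 2.51%), beside 4.07% and 2.34% of all loops, shares near the background. DESeq2 called 86 of the 358 at 72 h, where edgeR called 133.

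The NFE2 loop had such a neighbour. Loop23759 shared the downstream anchor of the NFE2 loop, at GPR84 and ZNF385A, but reached 140 kb upstream, past NFE2, HNRNPA1, a splicing factor gene, and CBX5, which encodes heterochromatin protein HP1 alpha. It had 241.3, 190, 180.4 and 230.9 scaled contacts at 0 h, 182.6, 162, 175.8 and 208 at 6 h, and 131.2, 121.3, 122.6 and 144.2 at 72 h. The 72 h libraries were below those of both other times, and the log2 fold change was -0.77 ± 0.10 (SE, edgeR adjusted p 1.59e-10). The constant loop23760 at that anchor had -0.20 ± 0.10 (SE, edgeR adjusted p 0.0923), with a 95% interval of -0.39 to -0.01, so that it was itself near a call.

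On chromosome 17, loop29736 ran from SCRN2 and SP6 to the downstream anchor of loop29737, which starts at CDK5RAP3. It had 83.05, 66.85, 85.91 and 93.47 scaled contacts at 0 h, 45.91, 50.76, 45.74 and 53.21 at 6 h, and 40.45, 30.07, 50.56 and 40.68 at 72 h. Both later times were below 0 h in each library, and the constant loop29737 had 182.4 ± 15.6, 171.5 ± 22.4 and 176.7 ± 18.2. On chromosome 1, loop443 shared an anchor with loop446, which spans RSPO1, a potentiator of Wnt signalling. Loop443 went from 97.9 ± 7.77 at 0 h and 83 ± 11.6 at 6 h to 48.9 ± 2.02 at 72 h, while loop446 had 163 ± 21.1, 153.9 ± 10.7 and 158.5 ± 11.6.

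The largest fall among the named pairs was that of loop15276 on chromosome 6, which spans SNX9, a sorting nexin gene, and ends in SYNJ2. It had 48.96 ± 1.93, 26.04 ± 7.66 and 19.84 ± 3.31 scaled contacts, beside 126.8 ± 10.1, 116.1 ± 5.56 and 116.8 ± 14.2 in loop15279 at the same anchor. Loop815, around the stress-induced gene GADD45A, had 88.34 ± 3.59, 75.55 ± 5.95 and 48.47 ± 6.37, beside 137.7 ± 8.8, 141.8 ± 23.3 and 134.9 ± 14.8 in loop817. These fell by 1.33 and 0.91 on the log2 scale at 72 h (edgeR adjusted p 1.71e-09 and 1.26e-08).

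Rises were fewer. Loop28994 had an anchor at the start of ADAMTS18, a secreted metalloprotease gene, and shared an anchor with loop28990, which spans that gene. It had 25.55, 26.74, 20.86 and 21.4 scaled contacts at 0 h, 32.94, 30.26, 35.74 and 26.6 at 6 h, and 48.54, 57.03, 50.56 and 60.09 at 72 h. The 72 h libraries lay above all others, and the log2 change was 1.11 ± 0.18 (SE; adjusted p 7.07e-08 in edgeR), while loop28990 had 99.88 ± 8.63, 102 ± 10.8 and 107.4 ± 4.19. At the other anchor of loop28990, loop28991 rose by 0.81 on the log2 scale.

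Loop32108 ended at the start of BACH1, a heme-sensing repressor, and had 50.31 ± 6.38, 53.79 ± 7.7 and 85.54 ± 9.49 scaled contacts at the 3 times, beside 117.1 ± 6.43, 111.8 ± 10.5 and 119 ± 8.16 in loop32110, which spans that gene. Loop27989 joined ITGA11, an integrin alpha subunit gene, with CORO2B and had 46.91 ± 8.2, 68.41 ± 4.39 and 76.82 ± 10.3, so that it was above 0 h already at 6 h (edgeR adjusted p 0.0178). Its partner loop27984, from CLN6 to ITGA11, had 114.9 ± 5.62, 117.4 ± 7.39 and 124.3 ± 8.11. Loop22690, ending at OAF and POU2F3, had 113.4 ± 8.99, 139.3 ± 9.86 and 166.1 ± 3.81, beside 146.2 ± 6.87, 138.2 ± 3.85 and 141.5 ± 10.5 in loop22692.

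**Figure D4:**
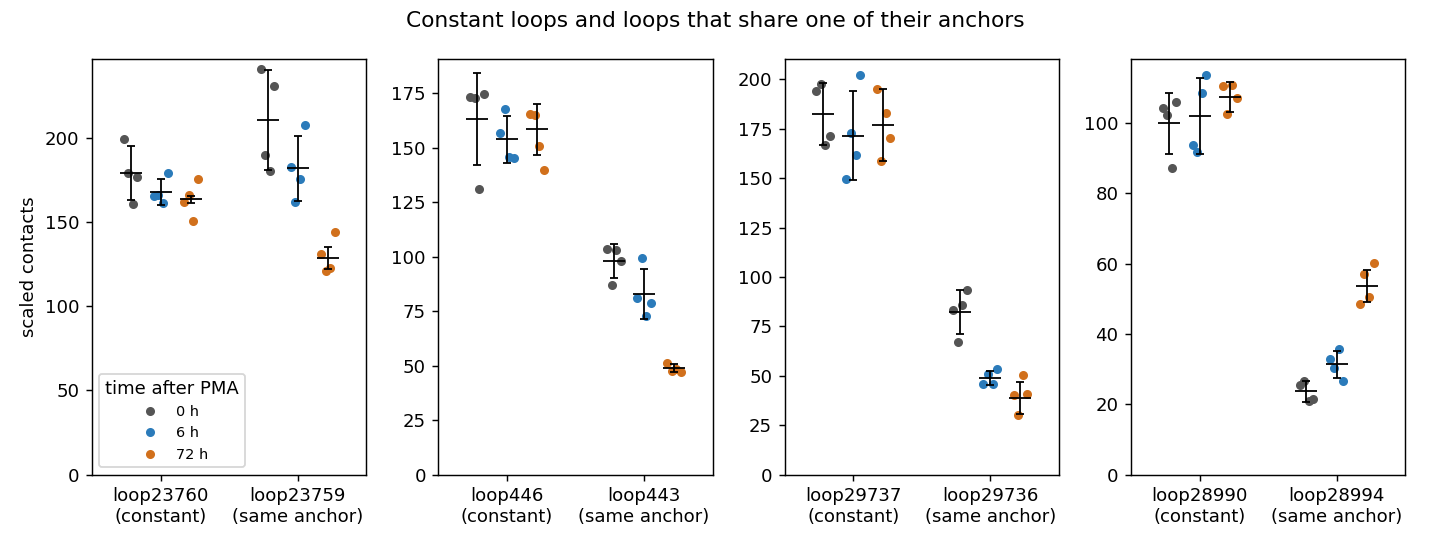
Scaled contacts in each library of 4 constant loops and of a loop that shares one anchor with each, with mean ± SD (n = 4 at 0 h and 6 h, n = 3 at 72 h) in black. In the first 3 panels the second loop has its lowest mean at 72 h, in the last its highest, and the constant loop overlaps between times.

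Summed over the 353 of them used for scaling, loops that share an anchor with a constant loop held 2.294%, 2.247%, 2.323% and 2.297% of contacts in replicates 1 to 4 at 0 h, 2.316%, 2.281%, 2.315% and 2.332% at 6 h, and 2.126%, 2.066%, 2.199% and 2.155% at 72 h. Each 72 h library was below each library of the earlier times. The mean was 2.29% ± 0.0317 (SD, n = 4) at 0 h, 2.31% ± 0.0215 (n = 4) at 6 h and 2.12% ± 0.0556 (n = 3) at 72 h. The difference of 72 h from 0 h was -0.1675 percentage points (two-sided exact permutation p 0.0571, adjusted 0.171 over a family of 6), and 0.0571 is the smallest p that 4 against 3 samples can give. With the 0 h pair also taken as 1 sample it was -0.161 (exact permutation p 0.1, the smallest for 3 against 3, adjusted 0.229). Within replicates 1 and 2 it was -0.175 and within replicates 3 and 4 -0.133. From 0 h to 6 h the share differed by 0.0209 points (exact permutation p 0.371, adjusted 0.446).

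**Figure D5:**
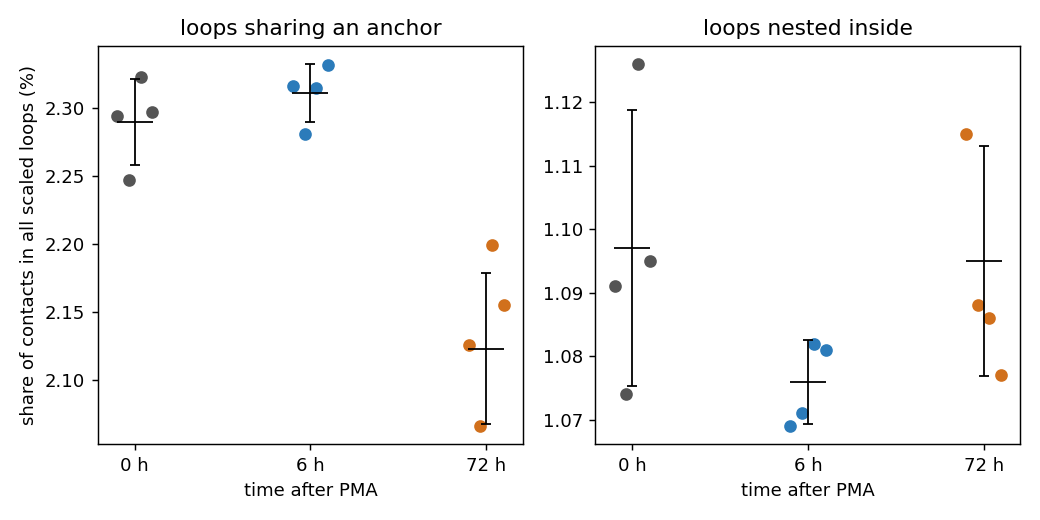
Share of scaled contacts (%, axes not starting at 0) in loops that share an anchor with a constant loop (left) and in loops nested inside one (right), with a point for each library and mean ± SD in black (n = 4, 4 and 3). On the left the 72 h libraries lie between 2.066% and 2.199%, below the lowest earlier library at 2.247%, and on the right the times overlap.

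Loops nested inside constant loops held shares that overlapped between the times. There were 91, and at 72 h 29 of them fell and 12 rose (edgeR quasi-likelihood test, adjusted p under 0.05), 31.9% and 13.2%, beside 16.9% and 16.7% of all loops. Without the strong ones, which are not constant by construction, 15 of 64 fell and 9 rose (23.4% and 14.1%). Their share of contacts was 1.097% ± 0.0217 (SD, n = 4) before treatment, 1.076% ± 0.00663 (n = 4) after 6 h and 1.095% ± 0.0181 (n = 3) after 72 h, and 72 h differed from 0 h by -0.00159 points (exact permutation p 0.914, adjusted 0.914). The 6 h share was 0.0206 points below that of 0 h (exact permutation p 0.0857, adjusted 0.171).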

How the data were processed

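In situ Hi-C contacts of K562 cells were deposited as 1 table of raw contact counts per loop in 30 columns, per the file headers; Juicer 1.5.6, DESeq2 and hg38 are named in the submitters' processing notes, without a role. The aligner and the loop caller are not given in the sources used here. The authors also deposited log2 fold changes, an adjusted p-value and a class per loop, used here to describe loops only. Anchor positions, the other kind of value deposited, count from 0 and are given here from 1.

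Count columns were summed into 12 libraries. The 24132 loops that passed edgeR's filter were tested in 1 model with no covariate (edgeR 4.0.16, R 4.3.3; TMM scaling, filterByExpr with minimum count 10 and total 15, quasi-likelihood test, Benjamini-Hochberg adjustment at 0.05). A prior count of 2 was added to the counts whose logs gave the length offset. A count includes the local background of its pixel. The fit was tested on simulated counts of 24132 loops for 72 h against 0 h, with the same assumed dispersion for every loop. The 200 changed loops were drawn at random from all of these, whatever their count. Those of 2-fold were found in 76% and those of 1.5-fold in 19%, and 8 unchanged loops were called. Strong loops were not scored separately, so these shares do not give the power for them.

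Shares of contacts were compared with scipy 1.17.1 by exact permutation of samples. Gene names and promoters come from RefSeq tables (GRCh38.p14). Named loops are the 10 highest counts, 5 smallest ratios, 5 longest, those with a listed gene end at an anchor, 3 on either side of the 1.1 limit, 3 with the smallest p between replicate pairs, and the 5 loops that rose and 5 that fell at 72 h with the smallest adjusted p among those sharing an anchor; loops with a motif were named after their sequences were seen. The loops, lists and tests were chosen with earlier results of these data known. Alternatives were DESeq2 1.42.0, other scalings and limits, no filter, a length offset (loess, span 0.3), a replicate block, a batch term, and leaving out each library. The DNA of anchors outside promoters was not used here.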

Additional observations from a re-analysis of the deposited data

Results flagged for a closer look

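Among 88 groups of 4 libraries examined for the named loops, 5 held a library far from the others, where chance alone gives about 4.4 at 1 in 20. The ABL1 loop, loop19805, had 540.5 scaled contacts in replicate 4 at 6 h, and the others had 609.8 to 623.3. The ASS1 loop, loop19800, had 130.6 in replicate 4 at 0 h, above 109.2 to 112.2. Replicate 2 at 0 h was low in the MYC loop, loop18716 (88.81, below 112.6 to 116.4), and in the AMN1 loop, loop23428 (107, below 134.9 to 137.4). In loop15276, which shares an anchor with a constant loop, replicate 1 at 0 h had 51.82, above 47.75 to 48.43.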

How the results depend on the processing

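The number of constant loops moved most with its own limits: 74 with means within 5%, 750 at a ratio of 1.2, 835 at a mean count of 50 and 15 at 200. It was 150 within replicates 3 and 4, of which 82 were among the 239, and 286 within replicates 1 and 2, of which 120 were. Without each library in turn it was 220 to 276, with 192 to 212 of the 239 kept. TMM scaling gave 205, of which 162 were among the 239. Calls among the 239 at 72 h against 0 h were 4 with no filter on low counts and 5 with the length offset, and 0 to 3 without each library (3 without 0 h replicate 2, 2 without 72 h replicate 1, and 1 each without 0 h replicate 4 and 72 h replicate 2). At 6 h they were 0 to 1, with 1 without 6 h replicate 4. The replicate block gave 1 call at 72 h and 139 calls, in place of 133, among loops that share an anchor. Between times, the deviations of libraries with equal replicate numbers correlated weakly: 1 of 12 correlations passed 0.1 (0.0199 to 0.118). Yet 11 of 12 were highest with their own number, so libraries of equal number resembled each other slightly across times. The main fit and the permutation tests did not pair libraries by number.

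DESeq2 called 86 loops that share an anchor. Their share of contacts at 72 h against 0 h stayed below 0 without each library (-0.182 to -0.139), with adjoining bins (-0.407) and without strong loops (-0.15), the last chosen after seeing the data. At 6 h against 0 h it was -0.0148 with adjoining bins. The nested share at 72 h against 0 h turned to 0.0192 within replicates 1 and 2 and ran from -0.0119 to 0.00831 without each library; with 0 h replicates 3 and 4 also counted once, an alternative added after seeing the data, it was 0.00309. At 72 h against 6 h it was -0.000186 within replicates 3 and 4. The cause was not tested. With gene ends within 10 kb of an anchor, 84.1% of constant loops had one, beside 84.2% of the other strong loops. It was 63.6% of loops with a mean count of 10 or more. The planned motif search in whole anchors was made in promoters. Depth limits what single loops can show, since counting error is about as wide as the 1.1-fold limit.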
